A study of Prunus avium with 21 samples.

Results

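Beta-cyanoalanine synthase (*CAS*) was represented in the assembled sweet cherry flower bud transcriptome by the 4 isoforms of the assembled gene TR10732|c0_g1, named here isoform 1 (TR10732|c0_g1_i1), isoform 2 (TR10732|c0_g1_i2), isoform 3 (TR10732|c0_g1_i3) and isoform 4 (TR10732|c0_g1_i4). They are 4 of 112043 assembled transcripts and 1 of 48840 assembled genes, and were taken by identifier, irrespective of their values. *CAS* was nevertheless a gene that the study had singled out in these same samples, so that its rise after treatment is no independent evidence of a response. RNA was sequenced from flower buds (stages A to D) of sweet cherry (*Prunus avium*) cultivar 'Burlat' grafted on Saint Lucie GF 64. Branches of 3 neighboring orchard trees, numbered 4, 5 and 6, were cut before the chill requirement was met and sprayed until drop-off with either Dormex at 2%, a hydrogen cyanamide (HC) solution, or deionized water (control). The branches of both treatments were then forced in a warm chamber in constant light and sampled in the morning at 1, 3 and 6 days after treatment (dat), whereas the untreated buds of day 0 were collected in the evening, before forcing. Each of the 7 groups (day 0, and HC-treated and control buds at 1, 3 and 6 dat) held 3 libraries, 1 from each tree, and each library pooled the buds of an entire cut branch. The same 3 trees therefore gave every group.

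Beta-cyanoalanine synthase is a pyridoxal phosphate enzyme, located in plant mitochondria, that joins cyanide to cysteine and releases hydrogen sulfide. Its product, beta-cyanoalanine, is converted to asparagine, aspartate and ammonia by nitrilases of the NIT4 type. Cyanide arises in plants as a co-product of ethylene, in the step from 1-aminocyclopropane-1-carboxylate (ACC) to ethylene, and when cyanogenic glucosides such as prunasin, which *Prunus* species contain, are broken down. It blocks cytochrome oxidase, and *CAS* is the main plant route that removes it. The enzyme is a relative of the cysteine synthases.

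The start of the coding sequence of isoform 1 is shown because this isoform carried nearly all of the *CAS* signal. The study's transcript sequences, shortened in the table used here, gave its first 399 bases, in which the reading frame from base 297 ran without a stop codon to base 399 (34 codons) and was preceded by 4 stop codons in the same frame. The 103 bases from that start codon, which is in capitals, read 5′ to 3′ as follows.
CAS isoform 1: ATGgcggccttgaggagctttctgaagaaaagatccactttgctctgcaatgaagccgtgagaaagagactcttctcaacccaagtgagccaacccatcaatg
The start was found by the open frame alone, and no genome position is given since the transcripts were assembled without a genome. Where isoforms 2, 3 and 4 differ from isoform 1 was not analysed here.

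All values are FPKM (fragments scaled to transcript length and library size), which can be set side by side between genes because they are per length. FPKM summed to 671152 to 760090 per library, and every one of the 21 libraries correlated most closely, over transcripts, with another library of its own group. Read counts are not part of the values, whose depth is therefore unknown and for which counting error cannot be stated. Treatment effects were tested with limma on log2(FPKM + 0.5) over all genes or transcripts whose mean in the libraries compared was 0.5 FPKM or more. A feature low in control buds could pass that minimum through the treated buds alone. A feature was called where its adjusted p (Benjamini-Hochberg over all features tested) did not exceed 0.05 and its log2 FC was 1 or more in size, and the log2 FC understates changes of features near or under the pseudocount of 0.5 FPKM. The 4 flower organ marker genes summed to 149.9 to 367 FPKM in the 21 libraries, of which the PISTILLATA-type gene PMADS2 gave 122 to 294 FPKM, while the SEPALLATA 1-like gene was near 0 in 5 of the 6 control libraries of 1 and 3 dat.

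The *CAS* gene total, the sum of the 4 isoforms, rose about 11-fold within 1 day of HC treatment and then declined. In HC-treated buds at 1 dat it stood at 672 FPKM in tree 4, 609 FPKM in tree 5 and 672 FPKM in tree 6, against 67.0 FPKM, 57.3 FPKM and 58.2 FPKM in the control buds of the same trees. Every HC-treated library lay far above every control library. The group means were 651 ± 36.5 FPKM (SD, n = 3) and 60.9 ± 5.37 FPKM (SD, n = 3), a 10.7-fold difference, and the folds within trees were 10 in tree 4, 10.6 in tree 5 and 11.6 in tree 6. The log2 FC was 3.41 (SE 0.0757, adjusted p = 1.05e-06, limma), and 4.59% of genes tested were called higher in this comparison. With trees 5 and 6 alone, since the study tested only 2 unnamed replicates at 1 dat, the call stood. In whole buds, fewer or more cells of a type and less or more RNA per cell cannot be told apart.

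At 3 dat the *CAS* gene total was 190 FPKM in tree 4, 265 FPKM in tree 5 and 122 FPKM in tree 6 after HC treatment, and 49.2 FPKM, 51.9 FPKM and 46.4 FPKM in the controls. The groups again did not overlap, but the treated libraries were spread over more than in any other group, with a coefficient of variation of 37.1% against 5.56% to 12.5% in the 6 other groups. The mean was 193 ± 71.5 FPKM (SD, n = 3) in treated and 49.2 ± 2.73 FPKM (SD, n = 3) in control buds, a 3.92-fold difference, and within trees the fold was 3.86, 5.12 and 2.64 for trees 4, 5 and 6. The log2 FC was 1.89 (SE 0.249, adjusted p = 0.00608, limma), in a comparison in which 4.01% of genes were called higher.

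At 6 dat the treated buds held 194 FPKM in tree 4, 154 FPKM in tree 5 and 193 FPKM in tree 6, and the controls 70.2 FPKM, 80.9 FPKM and 75.8 FPKM. All treated libraries were still above all controls. The means were 180 ± 22.5 FPKM (SD, n = 3) and 75.7 ± 5.36 FPKM (SD, n = 3), 2.38-fold apart, with folds of 2.76, 1.91 and 2.54 in trees 4, 5 and 6. The log2 FC of 1.24 (SE 0.118, adjusted p = 0.00371, limma) was called, as were 2.36% of genes higher at this day.

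**Figure D1:**
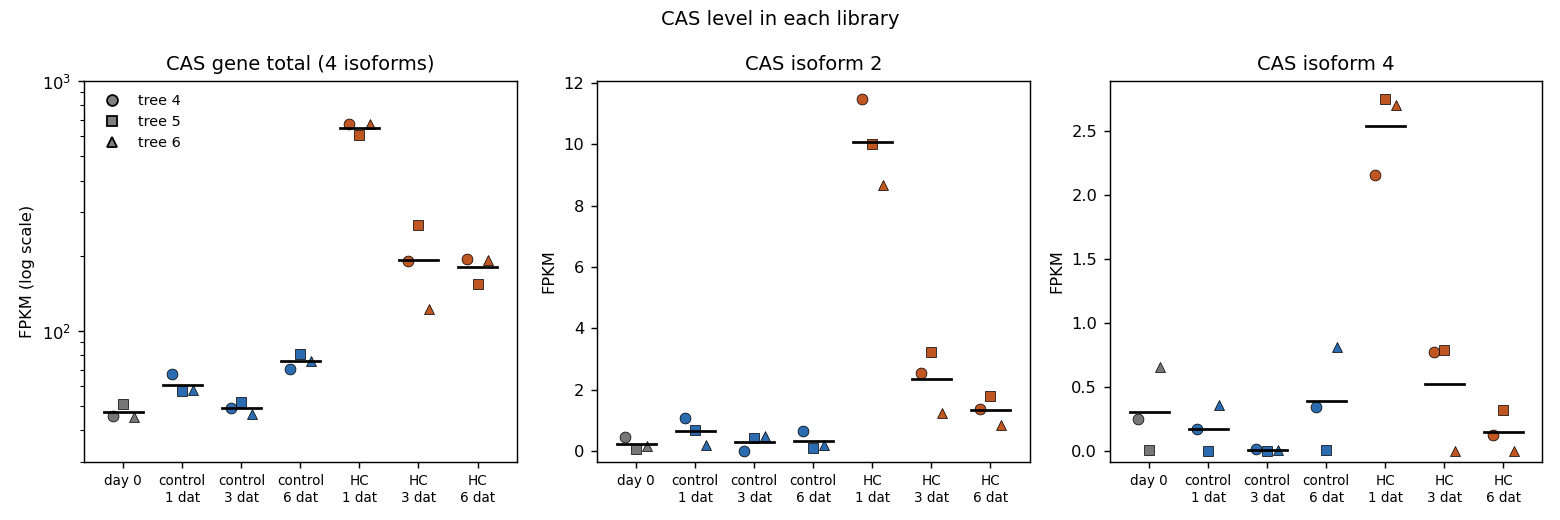
Level of the *CAS* gene total (left, FPKM on a log scale), isoform 2 (middle, FPKM) and isoform 4 (right, FPKM) in each of the 21 libraries, by group. Symbols are trees and horizontal lines group means. The HC-treated libraries of 1 dat, at 609 to 672 FPKM of the gene total, lie above all others, and those of 3 dat spread from 122 to 265 FPKM.

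The treatment effect on *CAS* fell after 1 dat. It was lower by 1.52 on the log2 scale at 3 dat than at 1 dat (log2 difference -1.52, SE 0.266, adjusted p = 0.0112, limma over 18 libraries), where 0.314% of genes were called with a lower effect. Between 1 and 6 dat the difference was -2.17 (SE 0.266, adjusted p = 0.000255), in a comparison with 2.29% of genes called lower. From 3 to 6 dat the effect changed by -0.65 (SE 0.266, adjusted p = 0.24), which was not called, beside 1.03% of genes that were called lower.

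Each arm was also followed on its own. In HC-treated buds the *CAS* level fell from 1 to 3 dat (log2 FC -1.82, SE 0.253, adjusted p = 0.00402), as did 1.98% of genes, and the values of 3 and 6 dat overlapped (log2 FC -0.03, SE 0.265, adjusted p = 0.957, 0.74% of genes called lower). In control buds the level at 6 dat was above that at 3 dat, 70.2 to 80.9 FPKM against 46.4 to 51.9 FPKM, without overlap. That difference had an adjusted p of 0.00737 but a log2 FC of 0.62 (SE 0.0896), under the threshold of 1, and 3.73% of genes were called higher. From 1 to 3 dat the control level differed by -0.30 (SE 0.0871, adjusted p = 0.152), not called, where 0.0102% of genes were called lower.

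Untreated buds of day 0 held 45.8 FPKM of *CAS* in tree 4, 51.1 FPKM in tree 5 and 45.2 FPKM in tree 6 (mean 47.4 ± 3.22 FPKM, SD, n = 3), the lowest group mean of the 7. Against day 0, the gene total was 13.7-fold, 4.07-fold and 3.81-fold higher in HC-treated buds of 1, 3 and 6 dat. The log2 FC were 3.77, 1.94 and 1.91 (SE 0.0755, 0.251 and 0.118), with adjusted p of 6.94e-07, 0.00134 and 4.53e-05. All 3 were called, in comparisons with 7.22%, 12.7% and 17.6% of genes called higher. Thus at 6 dat *CAS* stood above its level of day 0 in every treated library. The control buds differed from day 0 by log2 FC of 0.36, 0.05 and 0.67 at 1, 3 and 6 dat (SE 0.0905, 0.0908 and 0.0935), with adjusted p of 0.027, 0.719 and 0.00139, and none reached the fold threshold. The shares of genes called higher in these were 5.55%, 8.39% and 16.3%. The control difference of 3 dat turned negative (-0.18) when libraries were rescaled by median ratios, which lowered the log2 FC of *CAS* against day 0 by 0.06 to 0.24 and moved that against the control by at most 0.10. HC-treated and control groups were here compared with the same day 0 libraries, and forcing, the hour of sampling and time cannot be told apart in any comparison with day 0.

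Ordered by mean level, the groups ran from HC 1 dat over HC 3 dat, HC 6 dat, control 6 dat, control 1 dat and control 3 dat to day 0. The ranges of HC 3 dat and HC 6 dat overlapped, as did those of control 3 dat and day 0, so that these neighbours did not differ beyond their spread. The other 4 neighbouring pairs did not overlap, and the smallest ratio of means among them was 1.24. Among all 48840 assembled genes of a library, *CAS* ranked 67th to 84th by FPKM in HC-treated buds at 1 dat, 335th to 964th at 3 dat and 537th to 734th at 6 dat. In control buds the rank lay between 1607 and 3108, and at day 0 between 2628 and 2914.

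Isoform 1 made up 97.8% to 99.9% of the *CAS* FPKM in each of the 21 libraries. Such a share is high but not exceptional. Of 8588 assembled genes with at least 2 transcripts and a mean of at least 10 FPKM, 4.32% had a leading isoform with a larger share than the 98.3% of *CAS* over all libraries, and the median share of a leading isoform was 70.7% (78.1% among the 1107 such genes with 4 transcripts). eXpress assigned the reads that isoforms have in common, so the levels of the minor isoforms rest on that assignment and are uncertain.

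The level of isoform 1 therefore followed the gene total. In HC-treated buds it was 658, 595 and 659 FPKM at 1 dat, 186, 261 and 121 FPKM at 3 dat, and 192, 152 and 192 FPKM at 6 dat, for trees 4, 5 and 6. In control buds it was 65.7, 56.6 and 57.6 FPKM at 1 dat, 49.1, 51.5 and 45.9 FPKM at 3 dat, and 69.1, 80.2 and 74.7 FPKM at 6 dat. No treated library overlapped with a control library of any day. Its log2 FC at 1 dat was 3.4 (SE 0.0734, adjusted p = 4.81e-06). It was then 1.88 at 3 dat (SE 0.247, adjusted p = 0.0125) and 1.25 by 6 dat (SE 0.127, adjusted p = 0.00758), and the shares of transcripts called higher were 2.93%, 1.96% and 0.913%. Of the difference in *CAS* FPKM between treated and control buds, isoform 1 made up 97.8% at 1 dat, 98.1% at 3 dat and 99.4% at 6 dat. Its call at 3 dat was lost without HC tree 4 (log2 FC 1.86, adjusted p = 0.0531), control tree 4 (1.88, 0.0528) or control tree 6 (1.83, 0.0611). It was also lost at 3 and 6 dat without the filter on low values (adjusted p of 0.0667 and 0.0532), where 1 and 22 transcripts in all were called higher.

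Isoform 2 was the most abundant of the minor isoforms in HC-treated buds, where it was above all control libraries of the same day. At 1 dat it was 11.5, 10 and 8.68 FPKM in the treated buds of trees 4, 5 and 6 and 1.1, 0.686 and 0.195 FPKM in the controls. At 3 dat the treated values were 2.55, 3.24 and 1.24 FPKM and the control values 0.015, 0.417 and 0.498 FPKM. At 6 dat they were 1.39, 1.81 and 0.849 FPKM against 0.655, 0.109 and 0.208 FPKM. Day 0 lay in the control range, at 0.476, 0.0725 and 0.183 FPKM. The isoform rose at 1 dat (log2 FC 3.26, SE 0.336, adjusted p = 0.00145). Later log2 FC were 1.80 for 3 dat (SE 0.449, adjusted p = 0.0697) and 1.19 for 6 dat (SE 0.425, adjusted p = 0.22), both not called, although the value of 3 dat was called when all 21 libraries shared 1 estimate of the spread (adjusted p = 0.00645). It contributed 1.59%, 1.42% and 0.98% of the rise in *CAS* FPKM at 1, 3 and 6 dat.

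Isoform 4 was 2.16, 2.76 and 2.71 FPKM in the HC-treated buds of 1 dat (trees 4, 5 and 6) and at most 0.813 FPKM in each of the 18 other libraries. The groups of 1 dat did not overlap, and the isoform was called higher (log2 FC 2.20, SE 0.341, adjusted p = 0.0097). That call was lost without HC tree 6 (log2 FC 2.16, adjusted p = 0.0503) and with trees 5 and 6 alone (2.30, adjusted p = 0.095). Isoform 3 reached 0.415, 0.831 and 1.68 FPKM in the HC-treated buds of 1 dat and at most 0.597 FPKM elsewhere, and its log2 FC of 1.33 (SE 0.429, adjusted p = 0.125) was not called. At 1 dat isoforms 3 and 4 had control means of 0.0541 and 0.177 FPKM, under the minimum of 0.5 FPKM. They were tested there only through their level in treated buds, so the call of isoform 4 is no independent support. The same held for the tests of isoform 2 at 3 and 6 dat (control means 0.31 and 0.324 FPKM). At 3 and 6 dat isoforms 3 and 4 had a mean under 0.5 FPKM and were not tested. In control buds of 3 dat they were at or under 0.0173 FPKM in all 3 trees. Values that low are estimates close to 0, and presence or absence of these isoforms could not be read from them.

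No change in the make-up of the *CAS* signal passed the test. Over 1, 3 and 6 dat, the mean share of isoform 1 was 98.5% in treated and 98.9% in control buds, a difference of -0.386 percentage points (exact permutation test within days, two-sided, p = 0.141, adjusted p = 0.282 over the 4 isoforms, n = 9 a group). That difference was -0.16 percentage points without tree 5 (exact permutation p = 0.676) and -0.62 without tree 6 (exact permutation p = 0.0648). The 9 libraries of a group came from 3 trees at 3 days and are not 9 independent trees. An exact sign-flip test of the 9 differences within tree and day gave p = 0.242. The share of isoform 2 was 1.17% against 0.713%, 0.46 percentage points higher, and higher in 7 of 9 pairs of the same tree and day. Its p was 0.0273 in the exact permutation test, but it did not pass the correction over 4 isoforms (adjusted p = 0.109), and without tree 5 the p was 0.269 (difference 0.372). Isoform 3 took 0.11% against 0.146% and isoform 4 took 0.24% against 0.278%, with an exact permutation p of 0.832 and 0.81. At a single day 3 against 3 libraries cannot give p under 0.10, so no test was made by day.

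The shares of isoforms 2 and 4 varied more among the control libraries of 1 dat and among those of day 0 than among the HC-treated libraries of 1 dat. Isoform 2 ranged from 1.29% to 1.71% of the gene total in treated buds at 1 dat and from 0.335% to 1.63% in the controls. Isoform 4 ranged from 0.322% to 0.453% in treated buds of 1 dat, and from 0.0229% to 1.46% at day 0. In the treated buds of 1 dat isoforms 2, 3 and 4 together summed to 13.1 to 14.1 FPKM, whereas in controls and at day 0 the sum stayed between 0.0323 and 1.37 FPKM, where small amounts set the shares.

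**Figure D2:**
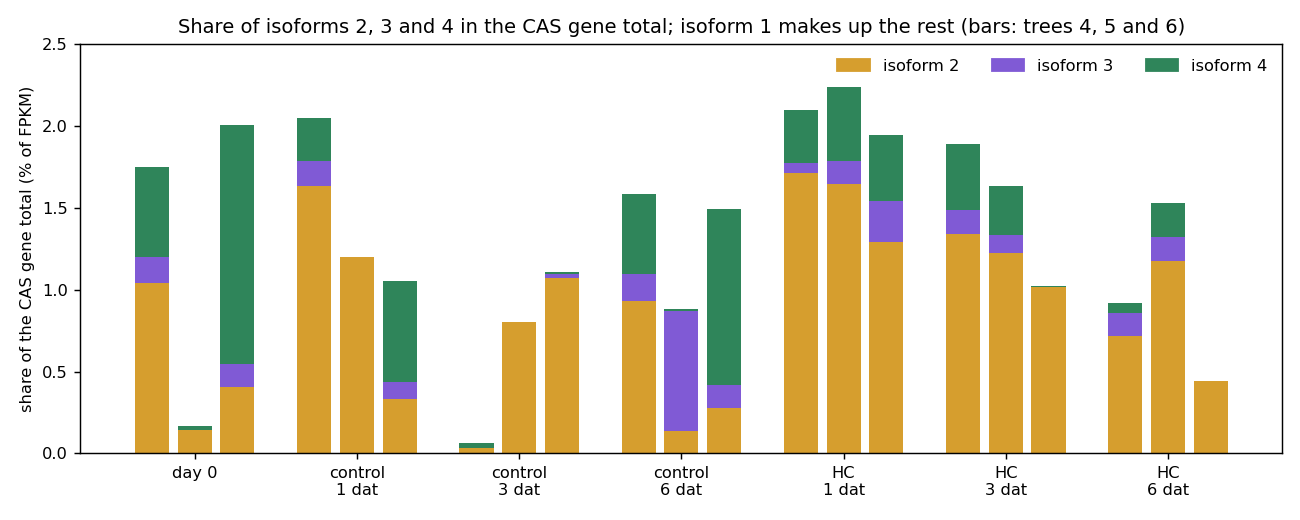
Share of isoforms 2, 3 and 4 in the *CAS* gene total (% of FPKM) in each library, stacked, with 1 bar per tree (4, 5 and 6 from left to right) in each group. Isoform 1 makes up the remainder, 97.8% to 99.9%, and the shares of isoform 2 in HC-treated buds of 1 dat, 1.29% to 1.71%, overlap with those of the controls, 0.335% to 1.63%.

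Each isoform was also set against the sum of the other isoforms of the gene, in a limma fit over all transcripts with such a partner, which asks whether isoform use changed. For isoform 1 the log2 differences of 1, 3 and 6 dat were 0.02, -0.16 and 0.76 (SE 0.272, 0.358 and 0.427), and the adjusted p were 0.988, 0.893 and 0.594. For isoform 2 it was -0.14, -0.08 and -0.05, with adjusted p of 0.94, 0.957 and 0.982. The sign for isoform 2 depended on the pseudocount, at 0.54, 0.90 and 0.69 with 0.1 FPKM, also not called. Its mean share was higher in treated than in control buds at each day, at 1.55% against 1.06%, 1.19% against 0.636% and 0.777% against 0.448%. At 1 dat isoforms 3 (-2.08, SE 0.412, adjusted p = 0.147) and 4 (-1.21, SE 0.365, adjusted p = 0.341) were not called either. Calls of isoform use were scarce in the whole table, at 0.27% of transcripts at 1 dat, 0.0263% at 3 dat and 0.0136% at 6 dat. For isoforms 3 and 4 the pseudocount raises the ratio to the rest of the gene, most in control buds, and so lowers these log2 differences. Their mean shares at 1 dat went the other way, at 0.149% and 0.392% in treated and 0.0851% and 0.291% in control buds.

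The other genes of cyanide metabolism were found by their annotation among the transcripts that the study listed as differentially expressed, a choice made on these samples, so that the counts called in the lists below are not independent evidence. Over all genes the median log2 FC was -0.11 at 1 dat, -0.01 at 3 dat and -0.04 at 6 dat. Of the genes tested, 4.59%, 4.01% and 2.36% were called higher and 1.76%, 2.01% and 1.5% lower.

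A second *CAS*-annotated gene and 2 cysteine synthases, relatives of *CAS* that make cysteine from O-acetylserine and sulfide, were not called at any day (3 genes tested at 1 dat and 2 at 3 and 6 dat, median log2 FC 0.52, 0.52 and 0.50). Cysteine synthase 2 (TR11757|c2_g6) was the most abundant, with 140 ± 4.22 FPKM in treated and 126 ± 3.70 FPKM in control buds at 1 dat (SD, n = 3) and log2 FC of 0.16, 0.10 and 0.12 at 1, 3 and 6 dat. Its level thus exceeded that of *CAS* in every control library and was exceeded by *CAS* in every treated library of 1 dat. Cysteine synthase D1-like (TR12200|c0_g1) had log2 FC of 0.52, 0.95 and 0.88, with adjusted p of 0.028, 0.0194 and 0.0171, all under the fold threshold, which it passed without HC tree 4 (1.03) or HC tree 6 (1.08) at 3 dat and without control tree 5 at 6 dat (1.02). The second *CAS*-annotated gene, TR10732|c0_g2, named here after its values were seen, had 0.804, 0.96 and 0.851 FPKM in the treated buds of 1 dat and at most 0.667 FPKM elsewhere (log2 FC 0.95 at 1 dat, SE 0.4, adjusted p = 0.136). It was untested at 3 and 6 dat, and since it is of the same assembled component as *CAS*, reads may be divided between them.

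*NIT4A* (TR24496|c0_g1), whose product acts on beta-cyanoalanine, was likewise higher in treated buds at every day. In trees 4, 5 and 6 it was 245, 210 and 232 FPKM after HC treatment and 82.2, 72.4 and 80.4 FPKM after water at 1 dat. At 3 dat the treated trees had 119, 151 and 89.7 FPKM and the controls 73.4, 71.4 and 70.9 FPKM. At 6 dat the values were 98.4, 87 and 93.1 FPKM against 68.9, 68 and 71.2 FPKM, so that treated and control libraries never overlapped. The log2 FC was 1.54 (SE 0.0765, adjusted p = 2.39e-05) at 1 dat, called, and fell under the fold threshold later, at 0.70 and 0.42 for 3 and 6 dat (adjusted p of 0.0364 and 0.0342). The effect at 6 dat was 1.12 lower on the log2 scale than at 1 dat (adjusted p = 0.00181). The order of the trees at 3 dat, tree 5 above tree 4 above tree 6, was the same as for *CAS*.

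Of the 3 genes of cyanide release from glucosides, only *MDL1* (TR12799|c0_g1), a mandelonitrile lyase that splits mandelonitrile into benzaldehyde and cyanide, was called, at all 3 days. The list's median log2 FC was 0.93, 0.44 and 1.28 at 1, 3 and 6 dat. *MDL1* stood at 35.1, 46.2 and 54.4 FPKM in treated and at 5.24, 6.5 and 4.07 FPKM in control buds of 1 dat (log2 FC 2.99, adjusted p = 9.25e-05). At 3 dat it was 37.6, 176 and 27.2 FPKM against 8.55, 5.15 and 14.6 FPKM (log2 FC 2.64, adjusted p = 0.0423), tree 5 again being the highest. At 6 dat the treated values were 86.6, 48.3 and 42.4 FPKM and the controls 9.61, 6.36 and 4.35 FPKM (log2 FC 3.03, adjusted p = 0.00571). The change of the *MDL1* effect from 1 to 6 dat was 0.04 (SE 0.761, adjusted p = 0.986). The other members were named after their values were seen. *BGD* (TR26414|c0_g1) had log2 FC of 0.93, 0.44 and 0.78, and was called at 1 dat after rescaling by median ratios (1.03) or without control tree 4 (1.11). These values are of the sum of its 6 transcripts. The study reported a single isoform of this gene as up-regulated, and no value of that isoform alone is given here. (R)-hydroxynitrile lyase (TR13187|c3_g3) had -0.02, 0.41 and 1.28, and was called at 6 dat where all 21 libraries shared 1 fit (adjusted p = 0.0242). The *MDL1* log2 FC of 3 dat was 1.83 without HC tree 5, and its call was lost in the fit blocked on tree (adjusted p = 0.0826), without the filter (0.114) and without HC tree 4 (0.0748) or control tree 4 (0.107), 5 (0.11) or 6 (0.0786).

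Both listed genes of prunasin synthesis were called higher at 1 dat, and they diverged afterwards. The list does not cover the whole route. The study named *CYP79D16* as a further gene of it, not differentially expressed, and no value of that gene is given here. *CYP71AN24* (TR12239|c1_g1), a cytochrome P450 of that route, was 52.8 ± 19.4 FPKM in treated and 11.4 ± 0.74 FPKM in control buds at 1 dat (SD, n = 3), with log2 FC of 2.10, 0.54 and 0.07 at 1, 3 and 6 dat. *UGT85A19* (TR37845|c4_g2), the glucosyltransferase of the last step, had log2 FC of 1.4, 2.60 and 3.25 and was called at each day, with means in treated buds of 3.01 ± 1.00 FPKM at 1 dat and 39.3 ± 19.8 FPKM at 6 dat (SD, n = 3). Between 1 and 6 dat the effect fell by 2.03 for *CYP71AN24* (adjusted p = 0.00153) and rose by 1.85 for *UGT85A19* (adjusted p = 0.00925). The call of *UGT85A19* at 1 dat was lost without HC tree 4 (adjusted p = 0.0557) or HC tree 6 (0.0617) and with trees 5 and 6 alone (0.124).

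The 5 genes listed by annotation under ethylene synthesis, the pathway that releases cyanide as a co-product, were all called higher at 1 dat, 4 at 3 dat and 2 at 6 dat, with a median log2 FC of 3.28, 2.38 and 1.59. Among all genes tested, 4.59%, 4.01% and 2.36% were called higher at these days. In control buds of 1 dat *ACO*, *ACS* and the ACC synthase 6-like gene, described below, were at most 0.282, 0.153 and 0.249 FPKM. They passed the minimum of 0.5 FPKM there only through the treated buds, as did *ACS* at 3 dat (controls at most 0.488 FPKM). Those calls are therefore no independent support. An ACC oxidase (TR8011|c0_g1), the enzyme of the cyanide-releasing step, was the most abundant and was above *CAS* in every library. At 1 dat trees 4, 5 and 6 had 1131, 1221 and 1255 FPKM after HC treatment and 131, 116 and 124 FPKM after water (log2 FC 3.28, SE 0.0653, adjusted p = 1.05e-06), and at 6 dat 1486, 904 and 995 FPKM against 315, 368 and 351 FPKM (log2 FC 1.68, adjusted p = 0.00639). *ACO* (TR18526|c0_g1) was counted here by its annotation as an ACC oxidase homolog, which does not establish ACC oxidase activity. It was 34.5 ± 4.40 FPKM against 0.259 ± 0.0341 FPKM at 1 dat (SD, n = 3), with log2 FC of 5.52, 3.95 and 1.59, the last not called except where all 21 libraries shared 1 fit (adjusted p = 0.00566). *SAMS 3* (TR7883|c0_g1), which makes S-adenosylmethionine, had log2 FC of 2.69, 2.02 and 1.24, all called. The 2 ACC synthases were at most 23.5 FPKM in any library. *ACS* (TR20901|c0_g1) had log2 FC of 2.65, 2.52 and 2.63, of which the last was not called (adjusted p = 0.0556), and the ACC synthase 6-like gene (TR15720|c0_g1) 3.48, 1.41 and 0.78, called at 1 dat only. The value of 6 dat was 0.0527 without HC tree 4 and 1.44 without HC tree 6. Calls of *ACS* depended on single libraries, and its log2 FC of 3 dat was 1.92 without HC tree 5. That of 3 dat was lost without control tree 4 (adjusted p = 0.0560) or 6 (0.0786) and without the filter (0.062), and a call was gained at 6 dat without HC tree 4 (0.0491) or HC tree 6 (0.0461), with a pseudocount of 0.1 FPKM (0.0483) and with all 21 libraries in 1 fit (0.00264), while the ACC synthase 6-like gene was called at 3 dat without HC tree 6 (0.0395). The effect on 4 of the 5 genes, all but *ACS*, was called lower at 6 dat than at 1 dat, by between 1.45 for *SAMS 3* and 3.93 for *ACO* on the log2 scale. The control values of *ACS* were under the pseudocount of 0.5 FPKM at 1 dat, which understates its log2 FC of that day. At 6 dat they were 0.490, 1.22 and 0.793 FPKM. Whether its effect changed between these days therefore cannot be read from the log2 FC.

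Cysteine is the second substrate of *CAS*. Of 7 genes of sulfate assimilation and O-acetylserine synthesis, 5 were called higher at 1 dat, 5 at 3 dat and 1 at 6 dat, and none lower, with a median log2 FC of 1.89, 1.25 and 0.25. Among all genes tested, 4.59%, 4.01% and 2.36% were called higher at these days. Serine acetyltransferase 1 (TR8310|c0_g1), which makes O-acetylserine, reached a level near that of *CAS* in treated buds of 1 dat. It stood there at 694, 542 and 752 FPKM, against 89.4, 95.4 and 94.3 FPKM in the control trees, with log2 FC of 2.81, 1.25 and 0.62 at 1, 3 and 6 dat, the last under the fold threshold. ATP sulfurylase 1 (TR11448|c3_g1), the entry step of sulfate assimilation, had log2 FC of 3.17, 2.79 and 1.33 and was the member called at 6 dat, a call lost without any 1 of control trees 4 (adjusted p = 0.104), 5 (0.0812) and 6 (0.0623) and without the filter (0.0674). The adenylylsulfate reductases differed in time course, with log2 FC of 2.59, 2.02 and 0.25 for 5′-adenylylsulfate reductase 3 (TR20138|c0_g1) and 1.04, 2.31 and -0.28 for the chloroplastic-like gene (TR25938|c1_g3). The latter fell under the fold threshold at 1 dat without HC tree 6 (0.94) or without control tree 4 or 5 (0.99 each). Sulfite reductase (TR38014|c0_g1) had 1.89, 0.88 and 0.01, where the value of 3 dat passed the threshold without HC tree 6 (1.03), and serine acetyltransferase 2 (TR25321|c1_g2) was called only at 3 dat (0.70, 1.21 and -0.09).

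Alternative oxidases pass electrons to oxygen by a route that cyanide does not block, and rhodaneses transfer sulfur to cyanide. All 3 alternative oxidase genes were called higher at 1 dat, 2 at 3 dat and none at 6 dat, and none of 3 rhodanese-like genes was called, with log2 FC between -0.75 and 0.46 over the 3 days. Among all genes tested, 4.59%, 4.01% and 2.36% were called higher at these days. The median log2 FC of the 6 genes was 0.97, 0.67 and 0.36. Alternative oxidase 1A (TR11359|c0_g1) was 37.9 ± 4.61 FPKM in treated buds and 0.933 ± 0.465 FPKM in controls of 1 dat (SD, n = 3), with log2 FC of 4.78, 3.51 and 0.95. The value of 3 dat was 2.87 without HC tree 5, and that of 6 dat was 0.34 without HC tree 4. Alternative oxidase 2 (TR11359|c1_g2) had 1.84, 0.88 and 0.64, and was also called at 3 dat without HC tree 6 (1.04). Ubiquinol oxidase 2 (TR24005|c0_g1) had 1.57, 1.77 and 0.40, and its call of 3 dat was lost without the filter (adjusted p = 0.0958) and without any 1 of HC trees 4 (0.0945) and 5 (0.104) and control trees 4 (0.103), 5 (0.054) and 6 (0.104). At 1 dat its control values were 0.545, 0.298 and 0.514 FPKM, with a mean under the minimum of 0.5 FPKM. The gene was tested there only through the treated buds, so its call of 1 dat is no independent support.

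**Figure D3:**
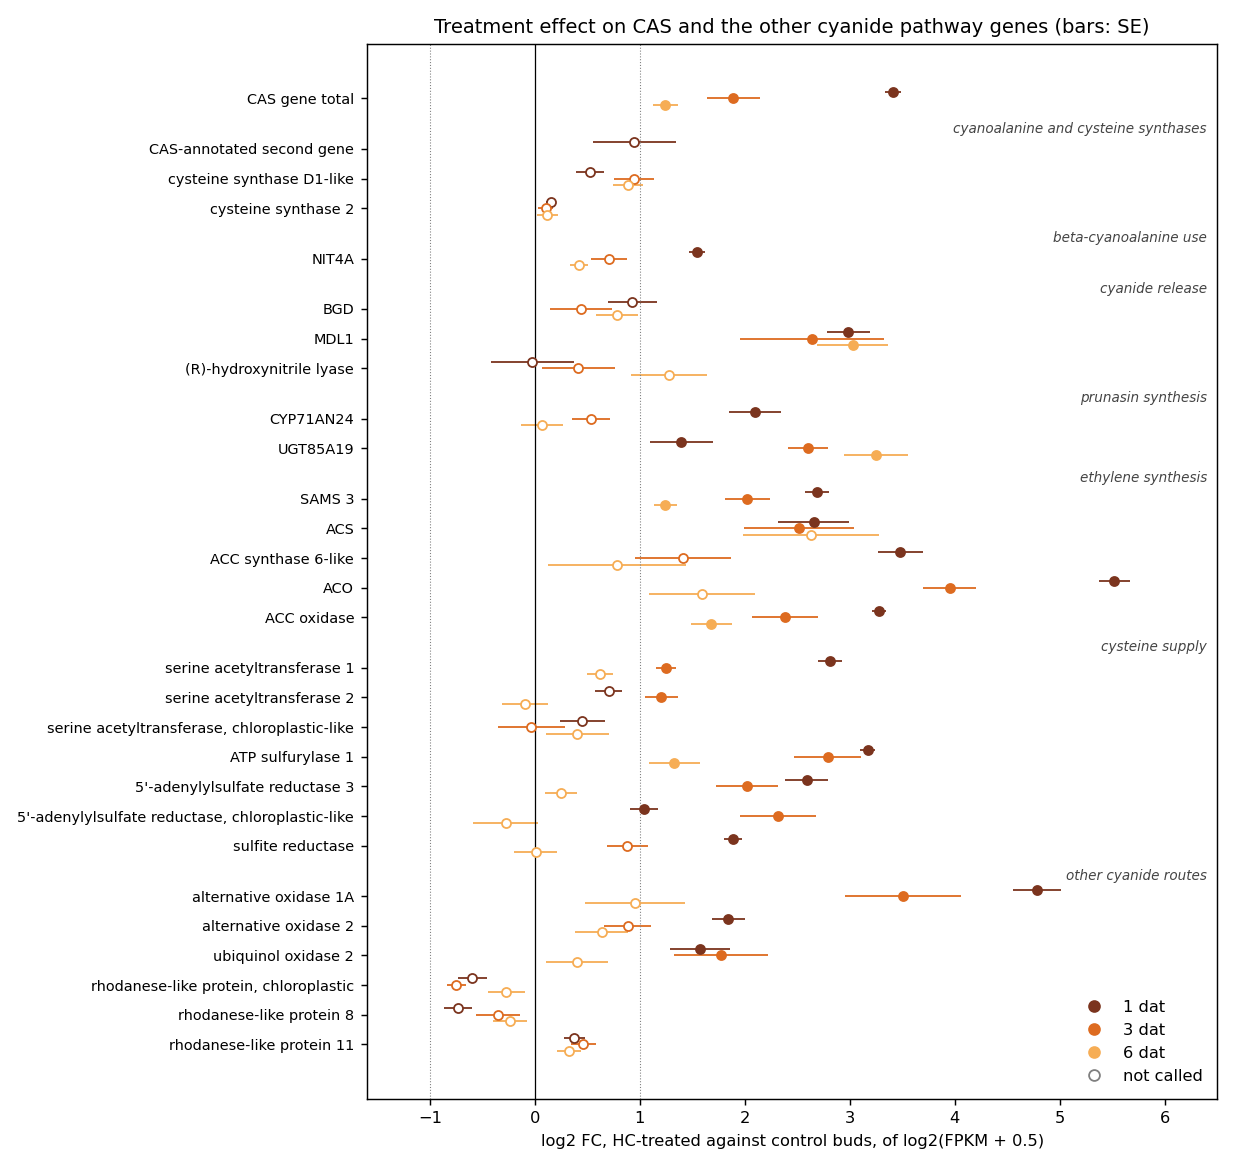
Log2 FC of HC-treated against control buds at 1, 3 and 6 dat for the *CAS* gene total and 27 genes of cyanide metabolism, with bars of 1 SE. Filled symbols were called, open symbols not, and dotted lines mark an absolute log2 FC of 1. For *CAS* the effect went from 3.41 over 1.89 to 1.24, whereas *UGT85A19* went from 1.4 to 3.25.

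The pattern of *CAS* over all 21 libraries was compared with that of 22869 other assembled genes with a mean of at least 1 FPKM, as Pearson's r on log2(FPKM + 0.5). These correlations are descriptions without a test. The points share 7 groups, so most of r reflects the group means, and 207 genes had an r above 0.9. The closest was a gene annotated as cinnamyl alcohol dehydrogenase (TR32971|c0_g1), an annotation for enzymes of lignin precursor synthesis, with r = 0.99 and a mean of 978 FPKM in treated and 89 FPKM in control buds at 1 dat. Next came an endo-beta-glucanase-like gene (TR33640|c1_g4, r = 0.98), a peroxisomal acetate/butyrate ligase (TR26945|c0_g1, 0.98), a scopoletin glucosyltransferase-like gene (TR26857|c2_g1, 0.98) and an uncharacterized gene (TR11666|c0_g3, 0.98). The list of 8 is completed by an NADPH:quinone oxidoreductase-like gene (TR12429|c2_g1, 0.98), a non-symbiotic hemoglobin (TR9690|c0_g1, 0.98) and a TRANSPARENT TESTA 12-like gene (TR26863|c1_g1, 0.97). Without the 2 libraries farthest from the median *CAS* level, the HC-treated trees 4 and 6 of 1 dat, r stayed between 0.96 and 0.99 for these 8. Deviations from the group means, which leave out the groups, correlated at 0.6 (the uncharacterized gene) to 0.93 (the quinone oxidoreductase-like gene), with 0.91 for the cinnamyl alcohol dehydrogenase. *CAS* had a coefficient of variation of 37.1% in HC 3 dat and of at most 12.5% in any other group. Correlations of deviations therefore weigh most on the libraries of HC 3 dat.

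**Figure D4:**
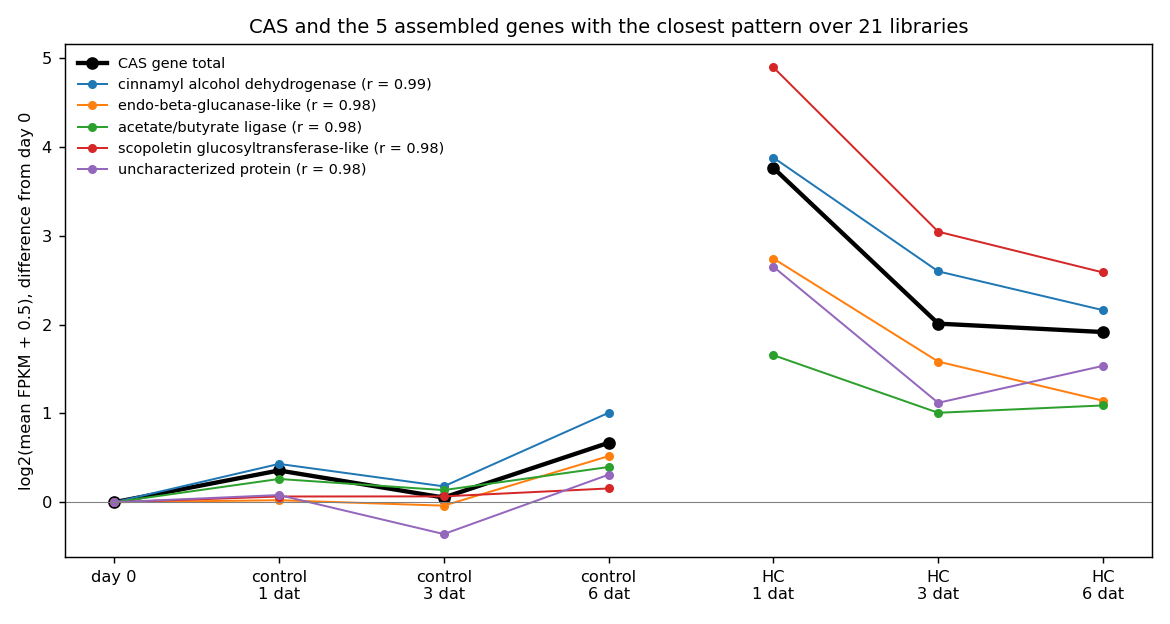
Difference in log2(mean FPKM + 0.5) from day 0 in each group for the *CAS* gene total and the 5 assembled genes with the highest r to it over 21 libraries. Lines join the groups of the water course and those of the HC course, and all 6 genes have their highest point at HC 1 dat.

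Within the cyanide genes, alternative oxidase 2 (r = 0.94, 63rd of 22869) and *NIT4A* (0.94, 67th) were nearest to *CAS*, followed by sulfite reductase (0.94, 84th), serine acetyltransferase 1 (0.93, 114th), *ACO* (0.92, 128th) and ATP sulfurylase 1 (0.92, 138th). Their deviations from the group means correlated with those of *CAS* unequally. The values were 0.93 for *NIT4A*, 0.85 for ATP sulfurylase 1, 0.65 for sulfite reductase, 0.63 for alternative oxidase 2, 0.50 for serine acetyltransferase 1 and 0.20 for *ACO*. These values, too, weigh most on the libraries of HC 3 dat. The prunasin genes were farther away, at 0.62 for *CYP71AN24* and 0.52 for *UGT85A19*, as was cysteine synthase 2 at 0.32.

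Some markers of tissue moved with the treatment. Of the 2 green tissue markers, the chlorophyll a-b binding protein was 362 to 407 FPKM in treated buds and 516 to 636 FPKM in controls of 1 dat, whereas psbY was 42.7 to 47.1 FPKM against 6.22 to 8.86 FPKM. Their sum ranged from 405 to 454 FPKM in treated and from 524 to 645 FPKM in control buds of 1 dat. At 3 dat the green sum was 244 to 318 FPKM in treated and 365 to 447 FPKM in control buds, again without overlap. The 2 tapetum markers summed to 8.86 to 9.54 FPKM in treated and 10 to 10.9 FPKM in control buds at 1 dat, and to 13.2 to 17.1 FPKM against 9.27 to 10.5 FPKM at 3 dat. At 6 dat the sum was 20.7 to 102 FPKM against 9.25 to 24.3 FPKM, and its members went opposite ways: TAPETUM 1 had a mean of 42.2 FPKM in treated and 4.99 FPKM in control buds, with 95.5 FPKM in HC tree 5, and DYSFUNCTIONAL TAPETUM 1 had means of 7.17 and 9.31 FPKM. The 4 flower organ markers also moved in different directions at 1 dat. Their sum, mostly PMADS2 and the APETALA 2-like gene, was 180 to 222 FPKM in treated buds and 257 to 289 FPKM in controls, whereas the DEFICIENS-like gene was 4.13 to 6.23 FPKM against 1.67 to 2.17 FPKM, and the SEPALLATA 1-like gene 0.198 to 1.34 FPKM against values near 0. The part of these shifts in the *CAS* values was not tested.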

How the data were processed

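RNA of 21 libraries (7 groups of 3, trees 4, 5 and 6 as replicates 1, 2 and 3) was sequenced from TruSeq stranded mRNA libraries. Reads were trimmed by the authors (Trimmomatic 0.33), the transcripts came from a Trinity assembly, and mapping was by STAR (version not given in the sources used here). The deposited FPKM per transcript came from eXpress 1.5.1. No counts were used, so the depth per value is unknown. FPKM of isoforms were summed per assembled gene and tested in limma 3.58.1 (R 4.3.3, lmFit and eBayes with trend) on log2(FPKM + 0.5), over features with a mean of at least 0.5 FPKM, with the libraries of the compared groups (18 for changes of the effect). Calls required that the adjusted p did not exceed 0.05 and the log2 FC was 1 or more in size, the thresholds of the study. The study tested with EBSeq and 2 replicates at 1 dat. Shares were tested by exact permutation within days (8000 assignments), and as an alternative by sign flips of the differences within tree and day (512 assignments), in Python 3.11.15 (pandas 2.3.3, numpy 2.4.6, scipy 1.17.1, plots with matplotlib 3.10.9). The limma and permutation steps were tested on simulated data.

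The members and gene lists were chosen with earlier results of these data known. Named are the isoforms, the gene total, list members called at any day (otherwise the 2 most abundant) and the 8 genes most like *CAS*. The same trees gave every group, and a fit with the tree as block was an alternative. The correlation of deviations from the group means was -0.03 to 0.08 between libraries of a tree and -0.18 to 0.18 between trees. Further settings were a pseudocount of 0.1 or 1 FPKM, a minimum of 1 FPKM or none, median-ratio rescaling, all libraries in 1 fit, no fold threshold, trees 5 and 6 at 1 dat and leaving out each library. The authors' own fold changes in their tables were not used.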

Additional observations from a re-analysis of the deposited data

Results flagged for a closer look

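The treatment effect on the *CAS* gene total differed between days by a test of the difference itself. It was lower at 3 dat than at 1 dat (log2 difference -1.52, limma adjusted p = 0.0112, lower in 3 of 3 trees) and lower at 6 dat than at 1 dat (-2.17, adjusted p = 0.000255, lower in 3 of 3 trees). Under the alternatives and with each library left out, the first ranged from -1.79 to -1.23 and the second from -2.24 to -2.06, and both remained called.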

How the results depend on the processing

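The calls of the *CAS* gene total at 1, 3 and 6 dat kept their direction and their side of the thresholds under every alternative run and without any 1 library, with log2 FC of 3.37 to 3.51, 1.63 to 2.18 and 1.19 to 1.35. With the tree as a block the number of transcripts called higher at 6 dat fell from 564 to 264, the *MDL1* call of 3 dat was lost, and no other call named here changed. Without the filter 1 transcript was called higher at 3 dat and 22 at 6 dat (isoform 1 at 1.88 and 1.25, no longer called), and at 6 dat 397 genes were called higher and 249 lower (702 and 445 with it). With all 21 libraries in 1 fit, 2012 and 1311 transcripts were called higher at 3 and 6 dat (1238 and 564 otherwise), 836 genes lower at 6 dat, and isoform 2 at 3 dat (1.80) was called. Trees 5 and 6 alone at 1 dat gave 1020 transcripts (1806 with 3 trees), isoform 4 at 2.30, not called, isoform 1 against the rest of the gene at -0.15 and (R)-hydroxynitrile lyase at 0.40. Rescaling turned (R)-hydroxynitrile lyase at 1 dat to 0.0369 and the difference of control buds of 3 dat from day 0 to -0.18. With a pseudocount of 0.1 FPKM isoform 1 against the rest was -0.46 at 1 dat and isoform 2 was 0.54, 0.90 and 0.69 at 1, 3 and 6 dat, and with 1 FPKM isoform 1 was 0.32 at 3 dat. Without the fold threshold 3283, 2676 and 1277 genes were called higher, 3609, 1748 and 864 lower, and 2888 and 1898 transcripts higher at 1 and 3 dat. The causes of these changes were not tested.

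Leaving out 1 library moved isoform 4 at 1 dat over 2.00 to 2.38 and isoform 1 at 3 dat over 1.61 to 2.17. Genes called higher ranged from 633 to 1211 at 3 dat and 232 to 666 at 6 dat, genes called lower from 259 to 646 and 68 to 359, and transcripts called higher from 267 to 1061 and 132 to 442. The lowest counts of 3 dat came without control tree 6 (genes) and HC tree 4 (transcripts), and those of 6 dat without control tree 4. Isoform 1 against the rest ran from -0.15 to 0.13 at 1 dat and -0.39 to 0.13 at 3 dat, and isoform 2 from -0.446 to 0.0619, -0.39 to 0.14 and -0.34 to 0.28 at 1, 3 and 6 dat. The change of *CAS* in treated buds from 3 to 6 dat ran from -0.32 to 0.23, the share difference of isoform 3 from -0.0587 to 0.00288 and that of isoform 4 from -0.214 to 0.159 percentage points. (R)-hydroxynitrile lyase ran from -0.36 to 0.20 at 1 dat, the chloroplastic-like serine acetyltransferase from -0.16 to 0.12 at 3 dat, and at 6 dat *CYP71AN24* from -0.12 to 0.18, serine acetyltransferase 2 from -0.27 to 0.15, the chloroplastic-like 5′-adenylylsulfate reductase from -0.52 to 0.12 and sulfite reductase from -0.22 to 0.14. None of these 6 gene effects was called without any 1 library, and the cause was not tested. FPKM keep no depth, so precision at low levels, isoforms 3 and 4 above all, cannot be stated.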
